A study of Mus musculus with 6 samples.

Results

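The genes described here are the autosomal genes of the immortalised B-cell clone Abl.3 whose maternal and paternal alleles could be counted apart. A gene was taken when its alleles together had at least 20 counts in both Abl.3 libraries, which held for 8926 of the 18663 autosomal genes, and of 19402 genes in all, in the allele table. Of these, 1917 lie on chromosomes 1, 5, 17 and 18, which were read apart because their allele balance was known to be shifted, and 7009 lie on the other 15 autosomes. Abl.3 is a single male clone of 129S1/SvImJ x CAST/EiJ F1 cells. It was set beside Abl.2 and Abl.4, female clones of the same cross. All 3 lines were in growth medium with 1% DMSO and no drug, and were collected on day 2. Each line had 2 libraries, labelled as preparation replicates, so the errors given are those of library preparation and counting and not of separate cultures or animals. Which strain was the mother was not used, so an effect of the parent and an effect of the strain cannot be told apart.

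In an F1 animal of distinct inbred strains, each autosomal gene has a copy from each parent, and sequence differences between the copies let transcripts be assigned to one of them. Most genes are read from both copies at similar rates. A minority are read mainly or only from a single copy, because of sequence differences in regulatory DNA, because of parental imprinting, or as random monoallelic expression, in which clones of the same cell type keep different active copies. A clone such as Abl.3 averages over cells that descend from a single cell, so a choice of allele that cells inherit can be seen in bulk RNA. In bulk RNA a different number of cells and a different amount of RNA per cell cannot be told apart.

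Allelic counts were 19873375 and 18362319 in the Abl.3 libraries, with a median of 872.5 and 801.5 counts over the 8926 genes. They ranged from 20004393 to 26881211 in the libraries of the other lines. The maternal alleles held 49.5% and 49.6% of autosomal counts in Abl.3. All 11 B-lineage markers examined were at 1 TPM or more in both Abl.3 libraries, from 4.39 TPM for the recombinase gene Rag1 upwards. Of 8 T-cell markers only the kinase gene Lck reached 1 TPM in both libraries (1.73 and 1.87), and of 8 myeloid markers only Lyz2, the lysozyme gene, did (96.5 and 73.8 TPM). None of 4 natural killer, 4 erythroid and 4 stromal markers did. The part of the Lyz2 signal in the results below was not tested.

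The first comparison asked which genes of Abl.3 had unequal output from their alleles. In both libraries the typical gene was balanced, with a median maternal share, the part of a gene's allelic counts that came from the maternal allele, of 0.497 and 0.497. The alleles of 3942 of the 8926 genes, or 44.2%, were unequal at an adjusted p under 0.05 (edgeR quasi-likelihood test, Benjamini-Hochberg). The maternal allele was higher in 1850 genes (20.7%) and the paternal allele in 2092 (23.4%). The size of these imbalances varied widely. Of the called genes, 1740 had a share from 0.4 to 0.6, a further 1670 lay farther out but inside 0.1 to 0.9, and 532 were strongly biased, with a mean share of at most 0.1 or at least 0.9. The 2 libraries lay on the same side of 0.5 for every called gene. The call is made on these same libraries, so this is not a separate check. Over all genes the share differed between the libraries by a median of 0.0281.

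The strongly biased genes made up 5.96% of those measured and were split evenly, with 268 toward the maternal and 264 toward the paternal allele. Single libraries gave 6.30% and 6.26%, and 481 of the genes passed the same limit in each library by itself. Strongly biased genes were mostly low in abundance. Their median was 2.97 TPM against 23.3 TPM for all genes with a TPM value, and their median coverage was 161 counts per library against 841. In the group of genes with the lowest coverage (20.5 to 259 mean counts) 14.8% were strongly biased and 34.4% were called. In the group with the highest coverage (2171 counts or more) 1.66% were strongly biased and 58.7% were called. The percent called was thus higher where coverage was higher, while strong bias was found mainly among genes with few counts. Of the 532 genes, 507 are annotated as protein coding. Some of them had almost no TPM: 126 were under 1 TPM, among 572 such genes in all. Among genes of less than 1 TPM, 29 had at least 1000 allelic counts in both libraries and 26 of these overlap another gene in the authors' coordinates. The allelic counts of such genes may come from a neighbour or a copy and are uncertain.

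**Figure D1:**
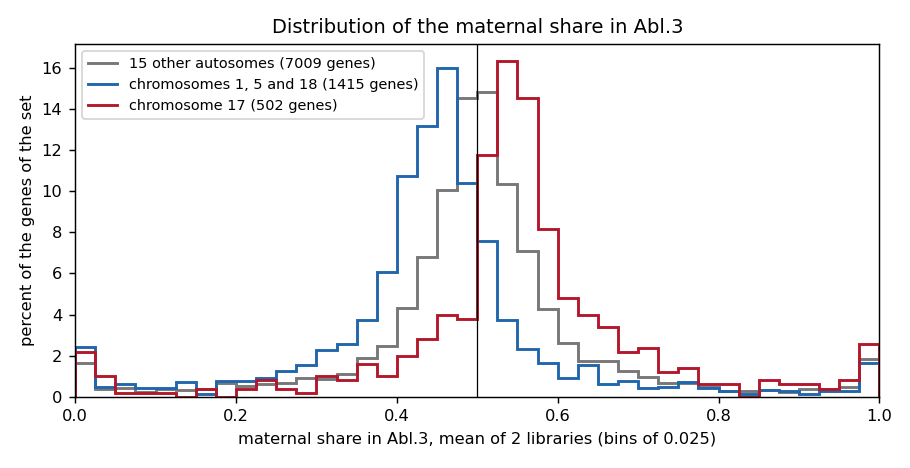
Percent of genes (y axis) in bins of the maternal share in Abl.3 (x axis, mean of 2 libraries) for chromosome 17, for chromosomes 1, 5 and 18, and for the 15 other autosomes. The peak of chromosome 17 lies above 0.5 and that of chromosomes 1, 5 and 18 below it, while all 3 sets have small peaks at the ends, where the strongly biased genes lie.

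Chromosomes 1, 5, 17 and 18 were shifted as a whole. On chromosome 1 the median maternal share of 519 genes was 0.446 in both libraries. On chromosome 5 the medians of 644 genes were 0.448 and 0.452, and on chromosome 18 those of 252 genes were 0.462 and 0.458. Chromosome 17 went the other way, with medians of 0.549 and 0.546 over 502 genes. The other 15 autosomes ran from 0.491 to 0.513 in single libraries. On the same chromosomes the medians were from 0.497 to 0.506 in Abl.4 and from 0.490 to 0.506 in Abl.2. Hence the libraries of Abl.3 lay apart from those of both other lines on these chromosomes, by more than the libraries of a line differed. The chromosomes were chosen with these medians known, so the medians are a description and were not tested.

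**Figure D2:**
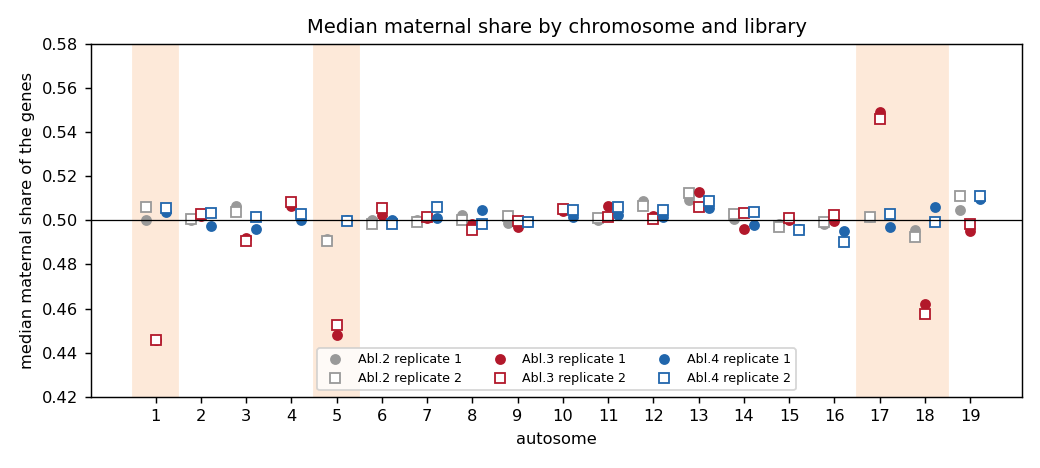
Median maternal share of the genes (y axis) on each autosome (x axis) in the libraries of the 3 clones, with chromosomes 1, 5, 17 and 18 shaded. In Abl.3 the shaded chromosomes lie at 0.446 to 0.462 or, for chromosome 17, at 0.546 to 0.549. The points of Abl.2 on chromosomes 4 and 10, at 0.998 and about 0.337, are outside the axis and not drawn.

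The shift was carried by most genes of these chromosomes and not by a few extreme ones. Both libraries lay below 0.5 for 67.2% of the genes of chromosome 1, 68.5% of chromosome 5 and 59.9% of chromosome 18, against 33.3% to 44.6% on the 15 other autosomes. Both lay above 0.5 for 67.1% of the genes of chromosome 17, against 34.6% to 43.8% elsewhere. When the genes of a chromosome were cut by position into 4 parts of equal gene number, the median share was 0.433 to 0.455 in the parts of chromosome 1 and 0.441 to 0.456 in those of chromosome 5. It was 0.542 to 0.556 on chromosome 17 and 0.431 to 0.474 on chromosome 18. Every part thus lay on the side of its chromosome. Strongly biased genes, maternal and paternal, numbered 9 and 25 on chromosome 1, 17 and 25 on chromosome 5, 22 and 18 on chromosome 17, and 7 and 6 on chromosome 18. They made up 6.55%, 6.52%, 7.97% and 5.16% of the genes on chromosomes 1, 5, 17 and 18, within the range of 4.28% to 8.62% on the other autosomes.

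The calls followed the shifts. On chromosome 1 the paternal allele was higher in 224 of 280 called genes, on chromosome 5 in 311 of 382 and on chromosome 18 in 97 of 123. On chromosome 17 the maternal allele was higher in 212 of 270. Without replicate 1 the paternal calls of chromosome 5 were 207 and the maternal calls of chromosome 17 were 141. On the other 15 autosomes 1485 called genes had the maternal allele higher and 1402 the paternal allele. Each gene was also tested against the median of its own chromosome in place of 0.5. The paternal calls became 116 on chromosome 1, 147 on chromosome 5 and 57 on chromosome 18. The maternal calls there became 102, 128 and 42. On chromosome 17 the maternal calls became 103 and the paternal calls 102. These medians come from the same libraries, so a more even split follows from the null. The percent of genes called on these chromosomes then lay between 39.3 and 42.7, against 40.96 on the others. In the authors' deposited table, which gives 1 value per line with confidence limits, the interval lay below 0.5 for 144 and above it for 39 of 496 genes of chromosome 1. The numbers were 181 and 39 of 615 on chromosome 5, and 56 and 18 of 236 on chromosome 18. On chromosome 17 they were 36 below and 114 above, of 463. On the other autosomes they were 744 below and 756 above, of 6629. In all, the authors' intervals left out 0.5 for 1161 genes below and 966 above of 8439 genes, a smaller part than the genes called here. Of these genes 2124 were also called here toward the same allele. The authors' values are averages over the same libraries as used here. Their intervals and the shared calls are therefore not a separate check.

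To see which allele differed, the counts of each allele were scaled to the library's allelic counts on the 13 autosomes outside chromosomes 1, 4, 5, 10, 17 and 18, and Abl.3 was set against each other line. On chromosome 1 the paternal alleles were higher in Abl.3 by a median of 0.22 on the log2 scale against Abl.4 and 0.25 against Abl.2, while the maternal alleles had medians of -0.11 and -0.07. On chromosome 5 the paternal medians were 0.26 and 0.21 and the maternal ones -0.05 and -0.04. On chromosome 18 they were 0.25 and 0.20 for the paternal and -0.08 and 0.00 for the maternal alleles. On chromosome 17 it was the maternal alleles that were higher, by 0.31 and 0.26, with paternal medians of 0.00 and -0.02. On the other autosomes, both alleles had medians from -0.15 to 0.07 against Abl.4, and from -0.13 to 0.05 against Abl.2 without chromosomes 4 and 10. The favoured allele of each shifted chromosome was thus above this range, and the other allele within it. Both comparisons use the same Abl.3 libraries and are not independent of each other. Total abundance also stood apart. Over genes of at least 5 TPM in every line, the median log2 ratio of TPM to Abl.4 was -0.06, -0.03, 0.04 and -0.03 on chromosomes 1, 5, 17 and 18, above the range of -0.26 to -0.10 on the other autosomes.

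**Figure D3:**
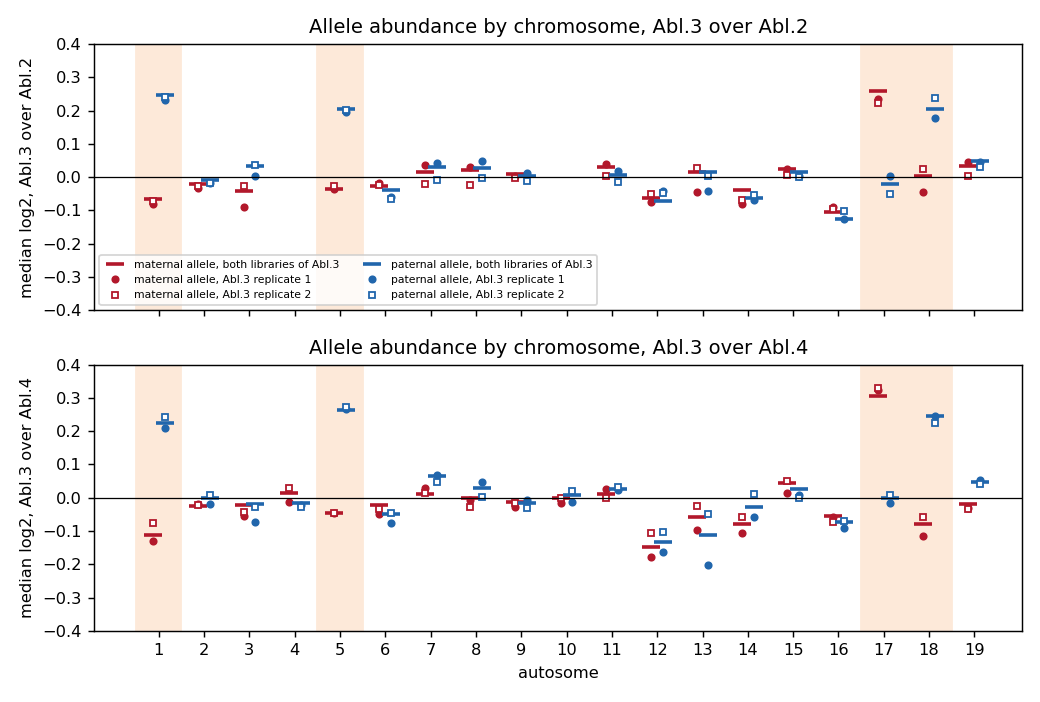
Median log2 ratio of allele abundance (y axis), Abl.3 over Abl.2 (upper panel) and over Abl.4 (lower panel), for the maternal and the paternal alleles on each autosome (x axis). Dashes use both Abl.3 libraries, and circles and squares the single libraries. The paternal alleles of chromosomes 1, 5 and 18 and the maternal alleles of chromosome 17 lie between 0.20 and 0.31 in both panels when both libraries are used. Chromosomes 4 and 10 of Abl.2, whose own shares are far from 0.5, are not drawn.

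The next question was where the allelic ratio of Abl.3 differed from that of another clone. The test of the difference was made on 8480 autosomal genes with at least 20 counts in all 6 libraries. In the comparison with Abl.4, Abl.3 had the higher maternal share at 516 genes (6.08%) and the lower at 684 (8.07%). With either Abl.3 library left out, fewer genes differed from Abl.4 in each direction. Against Abl.2, leaving out chromosomes 4 and 10 and thus over 7495 genes, it was higher for 559 (7.46%) and lower for 780 (10.4%). The shifted chromosomes held many of these calls. Against Abl.4 the share was lower in Abl.3 for 21.1% of the genes tested on chromosome 1, 26.0% on chromosome 5 and 22.3% on chromosome 18, and higher for 22.3% on chromosome 17. On the 15 other autosomes each direction held between 3.51% and 9.96% of genes. Against Abl.2 the same percentages were 29.3, 22.9, 18.2 and 23.6, and the other autosomes without 4 and 10 held between 2.13% and 16.8%.

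Strong bias was in part shared with the other clones. Of 419 genes strongly biased in Abl.3 that also had 20 counts in both libraries of Abl.4, 204 (48.7%) were strongly biased there toward the same allele, 20 toward the other allele, and 106 (25.3%) had a share from 0.3 to 0.7. Of 367 such genes measured in Abl.2 outside chromosomes 4 and 10, 220 (59.9%) were strongly biased toward the same allele, 16 toward the other and 70 (19.1%) had a share from 0.3 to 0.7. Among genes not strongly biased in Abl.3, 1.81% were strongly biased in Abl.4 and 3.13% in Abl.2. Where a gene was strongly biased in Abl.3 and had a share from 0.3 to 0.7 in the other line, the level of the allele that stayed active was read, on the 13 autosomes named above. For 72 such genes against Abl.4 its median log2 ratio was -0.28, with quartiles of -0.79 and 0.59. For 52 genes against Abl.2 it was 0.26, with quartiles of -0.29 and 1.11. The medians differ in sign and the quartiles span 0, so no common direction was seen for the active allele.

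The genes that show these patterns are given with their promoter sequences where the line comparison turns on them. Lrpap1 and Smyd2 differ from both other clones, Mrps15 from Abl.4 on a chromosome with a median near 0.5 in both, and Abcb9 is far more abundant in Abl.3 than elsewhere. The 250 bases before the RefSeq start of each are printed on GRCm38.p6, 5′ to 3′, with each CG dinucleotide in capitals, the main site of DNA methylation in mammals, which the title of the series names. The RefSeq start lies 67 bases for Lrpap1 and 72 for Smyd2 inside the gene as the authors' coordinates, given below, bound it, and within 3 bases of that bound for the others. The sequence is that of the reference strain and of neither parent. CG reads the same on both strands. Of all 32851 promoter windows of this length in that set, 92.1% hold at least 1 CG, with a median of 6.
Lrpap1, chr5:35105700-35105949, minus strand: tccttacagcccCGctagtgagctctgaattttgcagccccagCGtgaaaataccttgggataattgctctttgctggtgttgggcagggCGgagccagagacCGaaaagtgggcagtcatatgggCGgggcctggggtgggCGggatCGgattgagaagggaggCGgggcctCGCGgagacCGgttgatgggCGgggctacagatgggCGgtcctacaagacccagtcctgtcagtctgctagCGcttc
Smyd2, chr1:189922292-189922541, minus strand: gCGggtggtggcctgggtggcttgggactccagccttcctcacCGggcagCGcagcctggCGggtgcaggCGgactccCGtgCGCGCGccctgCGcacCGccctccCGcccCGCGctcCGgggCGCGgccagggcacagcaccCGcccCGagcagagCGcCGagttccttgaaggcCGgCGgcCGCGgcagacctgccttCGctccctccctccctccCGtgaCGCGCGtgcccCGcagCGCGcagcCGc
Mrps15, chr4:126046678-126046927, plus strand: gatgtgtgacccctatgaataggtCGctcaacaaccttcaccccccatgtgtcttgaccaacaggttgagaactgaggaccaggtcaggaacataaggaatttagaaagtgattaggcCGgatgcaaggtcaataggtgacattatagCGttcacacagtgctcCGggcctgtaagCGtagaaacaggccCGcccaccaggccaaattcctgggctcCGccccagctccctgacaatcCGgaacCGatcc
Abcb9, chr5:124095799-124096048, minus strand: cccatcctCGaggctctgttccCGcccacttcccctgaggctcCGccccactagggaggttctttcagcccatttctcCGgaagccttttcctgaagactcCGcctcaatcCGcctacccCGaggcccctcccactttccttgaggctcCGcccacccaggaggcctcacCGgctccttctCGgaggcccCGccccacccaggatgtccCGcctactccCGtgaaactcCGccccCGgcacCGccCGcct
There are 14 CG in the window of Lrpap1, 34 in that of Smyd2, 9 in that of Mrps15 and 17 in that of Abcb9. These are counts of letters, and methylation was not measured in the data used here.

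Lrpap1 (ENSMUSG00000029103, chromosome 5, 35091501 to 35105766) encodes a chaperone of the LDL receptor family. Its Abl.3 libraries had 4370 maternal and 229 paternal counts, and 4188 and 190, for shares of 0.95 and 0.957. Abl.2 gave 0.470 and 0.459, and Abl.4 gave 0.427 and 0.411, so the lines did not overlap. Its log2 allele ratio was higher in Abl.3 than in Abl.4 by 4.82 (adjusted p 2.18e-11 by edgeR) and than in Abl.2 by 4.56 (adjusted p 1.10e-11 by edgeR). Its TPM were 55.0 and 65.3 in Abl.3, below the 140.8 to 198.0 in the libraries of the other lines. Lrpap1 runs against its chromosome, since chromosome 5 of Abl.3 leans to the paternal side.

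Smyd2 (chromosome 1, 189880492 to 189922363), a lysine methyltransferase gene, had 1 maternal count in each Abl.3 library beside 1472 and 1473 paternal counts. Its share was 0.516 and 0.530 in Abl.2 and 0.272 and 0.309 in Abl.4. Abl.3 differed from both (adjusted p 1.19e-10 against Abl.2 and 3.85e-09 against Abl.4 by edgeR). Its TPM of 65.8 and 63.1 lay between those of Abl.2 (109.9 and 113.1) and Abl.4 (40.5 and 36.7).

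Mrps15 (chromosome 4, 126046925 to 126055532), which encodes a protein of the mitochondrial ribosome, had 5 and 6 maternal counts beside 2583 and 2740 paternal counts in Abl.3. In Abl.4 its share was 0.644 and 0.626 (adjusted p of the difference 1.35e-10 by edgeR). In Abl.2 it was 0.997 and 0.999, on a chromosome whose median there was 0.998. Its TPM were 81.6 and 92.9 in Abl.3 and 169.6 to 223.1 elsewhere. The 3 clones thus covered a paternal, a mixed and a maternal reading of this gene.

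Mt1 (chromosome 8, 94179082 to 94180327), a metallothionein that binds zinc and copper, also spanned the range. Its share was 0.0495 and 0.0501 in Abl.3 on 4804 and 5174 counts, 0.971 in both libraries of Abl.2, and 0.701 and 0.742 in Abl.4. Its abundance in Abl.3 (721.3 and 741.3 TPM) was near that of Abl.2 (949.7 and 884 TPM) and far above that of Abl.4 (50.1 and 69.1 TPM). Tsnax (chromosome 8, 125012997 to 125034192), whose product binds the RNA-binding protein translin, was at 0.999 in both Abl.3 libraries and at 0.00786 and 0.00552 in Abl.4 (adjusted p 2.30e-11 by edgeR). It was at 0.785 and 0.764 in Abl.2. Casp6 (chromosome 3, 129901425 to 129914103), an effector caspase gene, was at 0.95 and 0.954 in Abl.3, at 0.00758 and 0.00772 in Abl.2 on 259 to 264 counts, and at 0.579 and 0.608 in Abl.4. For these 3 genes no library of a line overlapped with a library of another line.

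**Figure D4:**
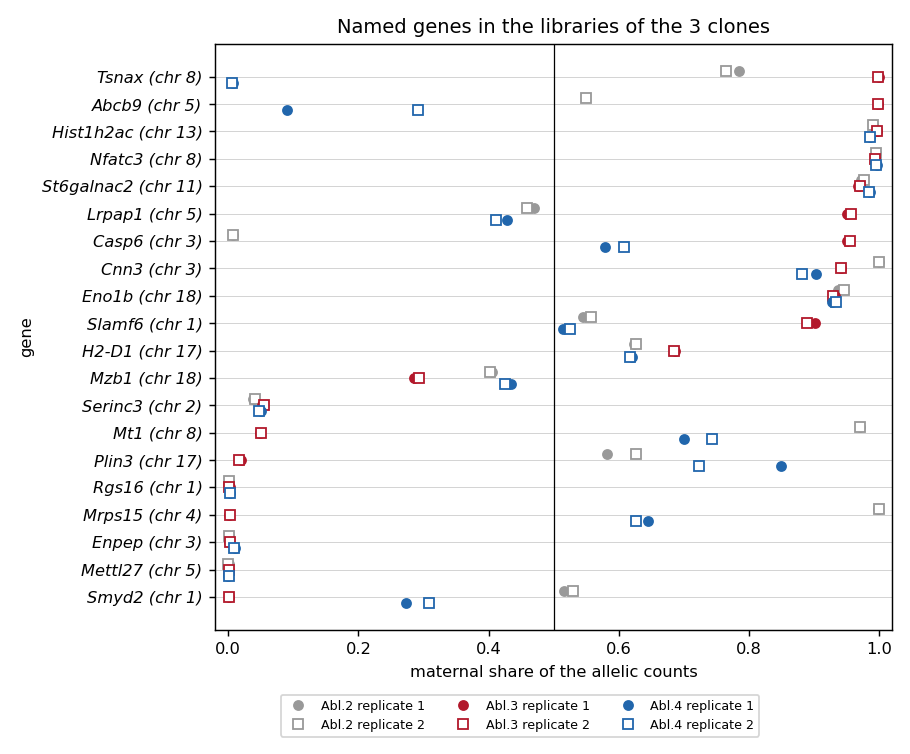
Maternal share (x axis) of the genes named by rule from all of the autosomes (y axis) in each library of the 3 clones, for libraries with at least 20 counts of the gene. Circles are replicate 1 and squares replicate 2. Genes such as Enpep, Rgs16 and Mettl27 are near 0 in all 3 clones, while Mrps15, Mt1, Casp6 and Tsnax are far apart between clones.

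Outside the 4 shifted chromosomes, the strongly biased genes with the smallest p-values were, apart from Mt1 and Mrps15, strongly biased or nearly so in all 3 clones. On the maternal side they were Hist1h2ac, Nfatc3, Cnn3 and St6galnac2. Nfatc3 (chromosome 8, 106058840 to 106130537), a calcium-regulated transcription factor gene, had 2676 maternal and 17 paternal counts in replicate 1 and 2574 and 19 in replicate 2. Its share was 0.994 to 0.996 in the other lines. St6galnac2 (chromosome 11, 116675303 to 116694868), a sialyltransferase gene, was at 0.967 and 0.970 in Abl.3 and 0.972 to 0.985 in the others. Cnn3 (chromosome 3, 121426497 to 121458207), a gene for an actin-binding calponin, was at 0.940 and 0.942, between Abl.4 (0.902 and 0.880) and Abl.2 (0.999). Hist1h2ac, a histone H2A gene (chromosome 13, 23681467 to 23683948), was at 0.996 on 13712 and 17590 counts. It had only 0.88 and 0.89 TPM and belongs to a family of near-identical copies, so its value is uncertain.

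On the paternal side they were Serinc3, Enpep, Mt1 and Mrps15. Enpep (chromosome 3, 129269175 to 129332720) encodes aminopeptidase A, known as the pre-B cell antigen BP-1. It had 23 and 31 maternal counts beside 15856 and 14856 paternal counts in Abl.3, and its share was at most 0.00988 in any library of the other lines. Serinc3 (chromosome 2, 163623272 to 163645131), a membrane protein gene, was at 0.0522 and 0.0550 on 21891 and 19349 counts, and at 0.0387 to 0.0505 in the others. Nfatc3, St6galnac2 and Serinc3 overlap other genes in the authors' coordinates, and it was not stated whether the counting used the strand.

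On the shifted chromosomes the rule named a gene in each direction. Rgs16 (chromosome 1, 153740349 to 153745468), a regulator of G-protein signalling, was at 0.00251 and 0.00191, and Slamf6 (chromosome 1, 171917515 to 171953170), a receptor of the SLAM family on lymphocytes, at 0.902 and 0.888. Rgs16 was at or below 0.00305 in every library of the other lines, while Slamf6 was between 0.515 and 0.557 there. Mettl27 on chromosome 5 was at 0.00108 and 0.00141 and at or below 0.00101 elsewhere. Plin3 (chromosome 17, 56277476 to 56292873), a lipid droplet coat protein gene, was at 0.0197 and 0.0169 in Abl.3 against 0.582 and 0.627 in Abl.2. In Abl.4 it had only 33 and 36 counts, with shares of 0.848 and 0.722. H2-D1, an MHC class I heavy chain gene at 2392 and 2012 TPM, was at 0.686 and 0.685 in Abl.3. It was at 0.623 and 0.626 in Abl.2 and 0.621 and 0.616 in Abl.4, so it leaned the same way in all clones and farther in Abl.3. Mzb1 on chromosome 18, which encodes a chaperone partner of immunoglobulin M, was at 0.285 and 0.294 in Abl.3 and at 0.403 to 0.434 elsewhere. Eno1b on chromosome 18 was at 0.932 and 0.928 and at 0.927 to 0.945 elsewhere. It is a near-identical copy of the enolase gene Eno1, and reads of the pair could be split by the counting.

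Abcb9 (chromosome 5, 124061530 to 124095798), a lysosomal peptide transporter gene, was the maternal gene named on chromosome 5. It had 34827 maternal and 65 paternal counts in replicate 1 and 29680 and 55 in replicate 2, a share of 0.998 in both. Its abundance was 625.4 and 595.5 TPM in Abl.3 against 0.55 to 1.95 TPM in the libraries of the other lines. With 18 to 40 counts per library there, its allelic difference between the lines was not tested.

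Genes of known function in this cell type were then read from 14 lists, which were chosen with earlier results of these data known. No list was tested as a whole, and each count stands beside the 44.2% of all genes called and the 5.96% strongly biased. The percent called also rises with coverage, and the coverage of the lists was not compared. Regulators of the B lineage decide whether a progenitor becomes a B cell. Of 29 tested, 8 were higher from the maternal and 9 from the paternal allele, and their median share was 0.512. Among them were Myb, a progenitor transcription factor gene on chromosome 10, at 0.142 and 0.124, and Erg, an ETS factor gene, with no paternal count among 234, which allows a paternal share of up to 0.0128. Myb lay at 0.418 and 0.433 in Abl.2 and 0.576 and 0.585 in Abl.4 (adjusted p 6.74e-08 by edgeR against Abl.4), while its TPM were alike in the 3 lines (154.5 to 172.1). Erg was at 0.882 or more in the others.

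The pre-B cell receptor signals that a heavy chain has been made in normal B-cell precursors. Of 30 tested genes 10 were maternal and 10 paternal, with a median share of 0.516. The adaptor gene Sh2b2 was at 0.102 and 0.0290 on 59 and 69 counts, and its adjusted p rose to 0.0556 by edgeR without replicate 2. In the 17 tested genes of V(D)J recombination and end joining, which rearrange and rejoin the antigen receptor loci, 3 were maternal and 5 paternal. The ligase gene Lig4 was at 0.903 and 0.829 and the polymerase gene Poll at 0.786 and 0.691. Poll was between 0.425 and 0.532 elsewhere and differed from both lines, whereas Lig4 was between 0.763 and 0.820.

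MHC class II molecules present peptides to helper T cells and are under the control of the transactivator Ciita. Of 13 tested genes 6 were maternal and 1 was paternal, with a median share of 0.554. Of these genes 9 lie on chromosome 17, which holds 4 of the maternal calls. H2-Ab1 was at 0.948 and 0.934 in Abl.3 on 22724 and 18953 counts and at 0.985 in both libraries of Abl.4. In Abl.2 it was all but silent (0.37 and 0.71 TPM). Ciita itself was called on the paternal side, but its libraries were far apart, at 0.194 and 0.0373. Of 22 class I and peptide loading genes 10 were maternal and 3 paternal, and 14 of the 22 lie on chromosome 17, with all 10 maternal calls. Tested against the median of their chromosomes, the class I genes gave 5 maternal and 6 paternal calls and the class II genes 5 and 2. H2-Q4 was at 0.0364 and 0.0549, and H2-Q10 had no maternal count among 1096, which allows a share of up to 0.00274. H2-Q10 was listed at 0 TPM in both libraries, and both belong to a family of near-identical genes, so these values are uncertain.

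Among 36 interferon response genes 10 were called in each direction, with 5 strongly biased. Oas1a, a sensor of double-stranded RNA, had no paternal count among 357, which allows up to 0.00840. It was at 0.972 or more in every library of the other lines. Ifi214, of a family of similar genes, was at 0.968 and 0.978. In Abl.2 it was at 0.766 and 0.754, and in Abl.4 at 0.971 and 0.825. Among 38 surface and homing receptors 13 were maternal and 14 paternal, or 71.1% called, beside 44.2% over all genes. Cd48 had 3 and 1 maternal beside 721 and 621 paternal counts at 126.4 and 121.0 TPM. In Abl.4 its share was 0.00422 and 0. Ly6a, the antigen Sca-1, had no paternal count among 66, which allows up to 0.0455. It was at 0.991 or more in the other lines, on 11 to 114 counts. In the 16 genes of Toll-like receptors and innate sensing 5 were called in each direction. Tlr3, a receptor for double-stranded RNA, was at 0.0543 and 0.0133 and Nod2, a sensor of bacterial cell walls, at 0.983 and 0.904. Both were low, at 1.11 and 1.22 TPM and at 1.05 and 0.77 TPM. Nod2 was at 0.897 to 0.970 in the other lines, and Tlr3 at 0.215 and 0.223 in Abl.2.

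Among 26 DNA methylation and heterochromatin genes 5 were maternal and 7 paternal and none was strongly biased. Cbx3, which encodes a heterochromatin protein, was at 0.189 in both libraries, and Gadd45b at 0.785 and 0.705. In the other lines Cbx3 was at 0.174 to 0.263 and Gadd45b at 0.464 to 0.653. Of 32 genes of the p53 pathway and the G1 phase 7 were maternal and 12 paternal. The inhibitor genes Cdkn2b and Cdkn1a went opposite ways, at 0.220 in both libraries and at 0.709 and 0.717. Cdkn1a was at 0.612 to 0.680 in the other lines. Cdkn2b, on chromosome 4, was at 0.997 and 0.999 in Abl.2 and 0.469 and 0.379 in Abl.4. Of 12 BCL2 family genes 2 were maternal and 3 paternal. Bok, a pro-apoptotic member, had no paternal count among 195, which allows up to 0.0154. Bcl2l14 was at 0.00851 in replicate 1 and 0.293 in replicate 2. In the other lines Bok was at 0.967 or more and Bcl2l14 at 0.03 or less. Without replicate 1 the adjusted p of Bcl2l14 was 0.268 by edgeR. Of 29 genes of JAK-STAT5 signalling and its feedback 1 was maternal and 7 paternal. This was the lowest percent called of any list, at 27.6, beside 44.2 over all genes. The kinase gene Abl2 was at 0.202 and 0.168, and the feedback inhibitor gene Socs2 at 0.243 and 0.245, with 672.3 and 674.1 TPM. Abl2 was at 0.132 to 0.189 in the other lines. Socs2 was at 0.226 and 0.231 in Abl.2 and 0.349 and 0.343 in Abl.4. Of 18 NF-kB genes 5 were maternal and 3 paternal. Map3k14, the kinase of the alternative NF-kB pathway, was at 0.202 and 0.208 and at 0.192 and 0.188 in Abl.4, but at 0.551 and 0.539 in Abl.2.

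**Figure D5:**
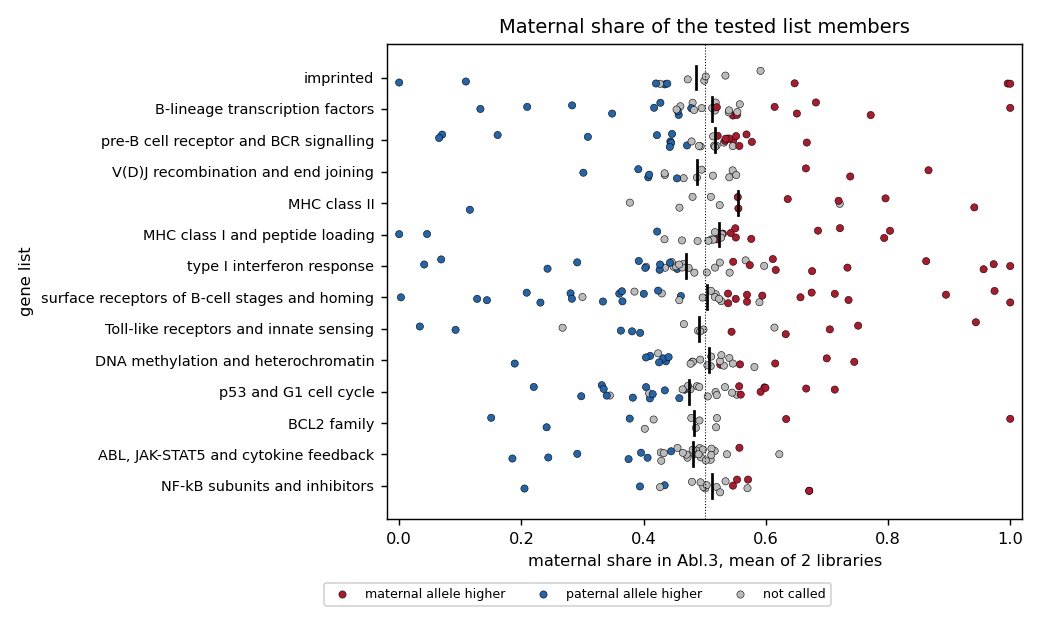
Mean maternal share in Abl.3 (x axis) of each tested member of the 14 gene lists (y axis), coloured by its call, with a bar at the list's median. List medians lie between 0.469 and 0.554, while single members reach from 0 to 1.

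Imprinted genes are read from a copy set by the parent it came from. Of 53 listed genes 46 were in the allele table and 14 had enough counts in Abl.3, of which 3 were maternal and 5 paternal. Grb10 and Igf2r, known to be read from the maternal copy in most tissues, were maternal here. Grb10 had no paternal count among 198, which allows a paternal share of up to 0.0152, and Igf2r had 0 and 1 paternal counts beside 146 and 121 maternal ones. In Abl.4 Grb10 was read from the other copy, with shares of 0 and 0.0235 on 107 and 85 counts. That difference was not tested, since Abl.2 had too few counts. Zrsr1 and Impact, known to be read from the paternal copy, were paternal. Zrsr1 had no maternal count among 95, which allows up to 0.0316, and Impact was at 0.107 and 0.111. Impact was at 0.00180 and 0.00131 in Abl.2 (adjusted p of the difference 3.55e-06 by edgeR) and at 0.162 and 0.112 in Abl.4.

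The other genes tested from the imprinted list had both alleles active. Whether they are imprinted in this cell type was not tested. Tssc4 was called on the maternal side (0.659 and 0.635), and H13 (0.446 and 0.423), Cd81 (0.416 and 0.424) and Copg2 (0.416 and 0.461) on the paternal side. Copg2 lost its call without replicate 1 (adjusted p 0.268 by edgeR) and with no replicate block (adjusted p 0.0927 by edgeR). Inpp5f, at 0.561 and 0.622, missed the threshold with an adjusted p of 0.0513 by edgeR. It passed with a minimum of 10 counts (0.0497) and with the null at the allele totals (0.0428) or by size factors per allele (0.0416). Trappc9, Casd1, Ube3a, Blcap and Gab1 were not called, with shares from 0.373 to 0.563 in single libraries. Zrsr1 overlaps Commd1, Igf2r overlaps Airn, Copg2 overlaps Mest and H13 overlaps Mcts2. Trappc9 also overlaps Peg13, Blcap overlaps Nnat and Ube3a overlaps Snhg14. Reads of such pairs could not be told apart if the counting did not use the strand, which was not stated.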

How the data were processed

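RNA was taken from live cells of 3 clones, 2 library preparations each, with a SMART-seq v4 kit from 10 ng of RNA and no molecular identifiers, per the labels' protocols. The submitters' processing notes name STAR 2.5.4a, SAMtools, GATK and DESeq2 and the builds GRCm38, mm10 and GRCh37, without roles. The deposited allele table holds read counts per gene and allele taken at SNP positions, per the file headers. The deposited abundance table holds TPM, and a further table holds the authors' maternal fraction per line, with replicates averaged and confidence limits of unstated level. The SNP list, strand setting and treatment of mapping bias toward the reference are not given in the sources used here.

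Genes needed 20 allelic counts in both Abl.3 libraries. Allele effects were tested with edgeR 4.0.16 (quasi-likelihood) in R 4.3.3, with an intercept per library, which pairs the alleles of a library, and an allele effect per line. The alleles of a library shared a library size, and all 6 libraries shared the estimate of the spread. Differences between lines needed 20 counts in all 6 libraries. P-values were adjusted by Benjamini-Hochberg over all autosomal and X genes tested, with a threshold of 0.05. DESeq2 1.42.0 was an alternative, and the script was tested on simulated counts. Ratios of allele abundance between lines used 0.5 added counts per allele. Shares are means of single libraries, and intervals and limits for a count of 0 (3 counts of the total) cover counting error only.

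The members, chromosomes and gene lists were chosen with earlier results of these data known. Named genes are, leaving out predicted genes, the 4 smallest p-values in each direction among strongly biased genes with 100 counts outside chromosomes 1, 5, 17 and 18, the 2 smallest in each direction for the difference from each line, the smallest in each direction on each of those chromosomes, up to 2 called genes per list with a share outside 0.3 to 0.7, and every imprinted gene tested. Genes more than 10 times as abundant in Abl.3 as in both other lines, at 5 TPM or more, were added after their values were seen, for 75 in all. Replicate numbers name library preparations and were not used to pair lines. Promoter windows matched 6960 of the 8926 genes, too few to compare groups of genes by CG number, so no such comparison was made. Some genes that the rules select are not reported here.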

Additional observations from a re-analysis of the deposited data

Results flagged for a closer look

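Differences of the allelic ratio between Abl.3 and another clone were singled out by the test of the difference itself, by edgeR. Over all autosomes 2238 genes differed from Abl.2, including chromosomes 4 and 10, where Abl.2 itself is far from balance, and 1200 differed from Abl.4. Abl.3 enters both comparisons.

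Among the genes named by rule, and 3 others (Scin, Slc26a11 and Cnn1) chosen after their values were seen because they were more than 10 times as abundant in Abl.3 as in both other lines, the maternal share in Abl.3 minus that in Abl.2 was -0.996 for Mrps15, -0.921 for Mt1, -0.777 for Cdkn2b, -0.586 for Plin3 and -0.523 for Smyd2. Mrps15 and Cdkn2b lie on chromosome 4. It was -0.340 for Map3k14, -0.292 for Myb, -0.115 for Mzb1, -0.0906 for Cnn1, the gene of a smooth muscle calponin, -0.0580 for Cnn3 and -0.0521 for Cd81. On the positive side it was 0.945 for Casp6, 0.522 for Scin, an actin-severing protein gene, 0.489 for Lrpap1, 0.408 for Slc26a11, an anion transporter gene, and 0.344 for Slamf6. It was 0.324 for H2-Ab1, 0.276 for Gadd45b, 0.226 for Poll, 0.225 for Tsnax and 0.213 for Ifi214. Smaller differences were 0.108 for Impact, 0.104 for Gab1, 0.0695 for Trappc9, 0.0607 for H2-D1, 0.0133 for Serinc3 and 0.00597 for Hist1h2ac. Myb and Gadd45b lie on chromosome 10, where the median share of Abl.2 was 0.338 and 0.336. H2-Ab1 had 158 and 118 counts in Abl.2, with shares of 0.386 and 0.847, so its value there is loose. Scin had only 64 and 72 counts in Abl.2 (shares of 0.328 and 0.583) and 22 and 54 in Abl.4 (0.5 and 0.296), and Slc26a11 had 74 and 130 in Abl.4. Cnn1 had 35 and 59 in Abl.2. The Abl.3 libraries of Gab1 lay on opposite sides of 0.5, at 0.563 and 0.441, against 0.398 and 0.396 in Abl.2, so the size of its difference depends on the library.

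Against Abl.4 the difference in share was -0.767 for Plin3, -0.672 for Mt1, -0.633 for Mrps15, -0.448 for Myb, -0.290 for Smyd2 and -0.204 for Cdkn2b. It was -0.141 for Mzb1, -0.102 for Socs2, -0.0437 for H2-Ab1, -0.0167 for St6galnac2 and -0.00732 for Enpep. It was 0.992 for Tsnax, 0.580 for Scin, 0.562 for Slc26a11, 0.534 for Lrpap1, 0.376 for Slamf6, 0.359 for Casp6 and 0.260 for Poll. It was 0.123 for Gadd45b, 0.0699 for Cdkn1a, 0.0683 for Erg, 0.0668 for H2-D1, 0.0497 for Cnn3 and 0.0106 for Hist1h2ac. The smallest of these, in Hist1h2ac, Enpep and St6galnac2, are differences between shares that are all near 0 or 1.

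Genes of the X chromosome entered the adjustment of p-values and the total allelic counts per library. They entered none of the counts of called or strongly biased genes reported above. The X chromosome held 1863 paternal counts in Abl.3, a male clone with a maternal X. These paternal counts were 1074 of 267635 X counts in replicate 1, or 0.401% (95% Wilson interval 0.378% to 0.426%). In replicate 2 they were 789 of 252442, or 0.313% (0.292% to 0.335%). Among these counts, 523 fell in Mid1 and 233 in Elf4. The source of these counts was not tested.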

How the results depend on the processing

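Direction and threshold held for most named genes under each alternative. Of 75 named genes 68 kept their side of the threshold with DESeq2. Flot2, Epb41l3, Atp9a, Gtf2ird1, Tmem205, Bcl2l14 and Ms4a1 did not, with adjusted p of 0.0558 to 0.304 by DESeq2, although all 7 kept their direction and the log2 ratio of none of them was smaller in size than by edgeR (-10.93 against -9.20 for Epb41l3). Without 1 library, Copg2, Sh2b2, Bcl2l14, Ms4a1 and Rab19 lost their call, as Copg2 did with no replicate block, and the cause was not tested. Inpp5f, Slc26a11, Slamf7 and Gfi1 gained one under some alternatives. Trappc9, which was not called, turned sign to 0.022 with the allele totals as the null, to 0.025 with size factors per allele, and ran from -0.00873 to 0.000673 without 1 library. Gab1, not called, ran from -0.34 to 0.36. DESeq2 called 3681 genes, of which 3659 were called by edgeR too, all in the same direction. With the allele totals as the null, the maternal side held 50.2% of calls in place of 46.9%.

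Genes that overlap no other gene, which are fewer, gave 2313 calls (1079 maternal, 1234 paternal), of 5021 tested. Paternal calls on chromosomes 1 and 5 were then 141 and 167, and maternal calls on chromosome 17 were 135. With each chromosome's median as the null the calls were 116, 147 and 103, and 57 on chromosome 18. Without 1 library they ran from 169 to 170, 207 to 216, 141 to 144, and stayed at 73 on chromosome 18, while all calls ran from 2708 to 2755. With no replicate block, that is without pairing the alleles of a library, 3068 genes were called, and the counts against Abl.4 were 322 higher and 396 lower. Without 1 library these were 352 to 459 and 455 to 605.

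The percent strongly biased was 4.54 with limits of 0.05 and 0.95, 6.79 with a minimum of 10 counts, 4.87 with 50, 6.26 to 6.30 in single libraries, 6.85 without overlapping genes and 4.84 at 1 TPM or more. This last alternative was chosen after seeing the data, as was scaling allele abundance by all autosomes, which turned no direction of the favoured alleles. The median of chromosome 1 was 0.445 and 0.447 with minimums of 10 and 50. Shares of summed counts were 0.432, 0.464 and 0.564 on chromosomes 1, 5 and 17. Low coverage limits the precision of single shares: the genes in the lowest coverage group have 20.5 to 259 per library.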

Other observations

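Genes of the SLAM receptor family, cell surface proteins of lymphocytes, stand side by side on chromosome 1 and did not share an active allele in Abl.3. These genes were chosen after their values were seen. Ly9 had 3 and 16 maternal beside 1682 and 1560 paternal counts, and Cd48 had shares of 0.00414 and 0.00161. Slamf7, between them, was at 0.514 and 0.519, with 248.8 and 250.4 TPM. Cd84 was at 0.372 and 0.358, and Slamf6 at 0.902 and 0.888. Cd48 and Slamf6 were thus read from opposite copies within the same gene cluster. Over the 15 autosomes outside 1, 5, 17 and 18, 397 of 738 neighbouring pairs of called genes that do not overlap leaned to the same allele (53.8%), and 17 of 24 pairs of strongly biased genes did (70.8%).

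A further group, also chosen after values were seen, holds the genes far more abundant in Abl.3 than in the other clones. It has 17 genes of at least 5 TPM in Abl.3 and more than 10 times the level of both other lines. Of these 11 were strongly biased, 5 maternal and 6 paternal, and over all genes of at least 5 TPM 200 of 6959 were (2.87%). These counts are a description, since the genes were taken for their level in Abl.3, and genes high in Abl.2 or Abl.4 were not counted in the same way. On the maternal side Abcb9 stood with Scin (0.973 and 0.984), Tmem205, Atp9a and 2510002D24Rik. On the paternal side were As3mt, an arsenic methyltransferase gene, with 1 and 2 maternal beside 1344 and 1377 paternal counts, and Epb41l3, Htra3, Pcdh7, Gtf2ird1 and Cnn1. Others had both alleles active. Gfi1, a transcriptional repressor gene of blood cells, was at 0.558 and 0.557 and was not called against equal alleles. Against the median of chromosome 5 it was called on the maternal side (adjusted p 0.0298 by edgeR), and Slamf7 was so called against the median of chromosome 1 (adjusted p 0.0389 by edgeR). Ms4a1, which encodes CD20, was at 0.769 and 0.702.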
